A study of Mus with 9 samples.

Results

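Bone marrow of mice whose graft carried an alanine mutant of cyclin D2 (CCND2mut) was compared with marrow of mice whose graft carried the empty vector (Vec), by RNA sequencing. The comparison takes the 3 libraries labelled CCND2mut (1, 2 and 3) and the 3 labelled Vec (1, 2 and 4), 6 of the 9 libraries of the series, chosen by their titles. Per the series' design text, the recipients of both groups were lethally irradiated C57BL/6 mice. The grafted cells of both groups were fetal liver cells of embryonic day 12.5 from a conditional AML1-ETO knock-in mouse whose fusion gene carries an mCherry tag. They had been infected with the retrovirus MSCV-IRES-EGFP, which was empty in Vec and held a CCND2 coding sequence with threonine 280 changed to alanine in CCND2mut. Only cells positive for mCherry and GFP were injected, but supportive cells went in with them, and no sort of the harvested marrow is given, so that the libraries can hold host and supportive cells. No source used here gives the ages of the recipients, the time of harvest or the promoter or Cre behind the knock-in.

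AML1-ETO joins RUNX1 to RUNX1T1 and is found in human acute myeloid leukaemia, and the submitters describe it as giving a pre-leukaemic, myeloproliferative state in this mouse. Cyclin D2 binds CDK4 and CDK6, and the active kinase phosphorylates RB so that E2F factors can start S phase. Phosphorylation of the threonine near the end of the protein marks cyclin D2 for degradation, and its loss is known to give a stable protein. Myeloid cells in marrow pass from stem and progenitor cells through promyelocytes, which fill primary granules, to neutrophils, which carry secondary and tertiary granules.

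Total counts were 15043755 to 17126454 per library, and 14796 genes passed the filter on low counts. Levels are counts scaled to library size (CPM), fold changes are on the log2 scale with a standard error (SE), and every adjusted p is from edgeR over all tested genes, two-sided, with a threshold of 0.05. CPM is not divided by gene length, so that levels are compared only within a gene. Whether each library is a separate animal is not stated, and the p-values then reflect just the spread among these 6 samples, which can be technical. Correlations over genes of log2 CPM were 0.953 to 0.975 among CCND2mut, 0.940 to 0.978 among Vec and 0.791 to 0.864 between the groups. The first principal component, with 75.7% of the variance, separated the labels. The second, with 10.9%, put Vec 1 (48.5) and CCND2mut 1 (37.2) apart from the other 4 libraries (-32.1 to -12.1). Vec 1 also held 1.51% haemoglobin and 0.588% immunoglobulin counts, against at most 0.356% and 0.0441% in the other 5. The label bone marrow was checked with fixed markers, of which myeloid Mpo stood at 886 to 1163 CPM in Vec and 1180 to 3388 in CCND2mut. Other fixed myeloid markers (Elane, Prtn3 and Ltf, below) were uneven, with low levels in some libraries. Not all fixed markers are reported here. Endothelial Cdh5 and bone Bglap stood at or below 3.85 and 0.319 CPM in every library. A whole list of stroma, endothelium and bone genes, Spp1 among them, summed to 553 to 585 CPM in Vec and 567 to 1258 CPM in CCND2mut. In bulk marrow, fewer cells of a type and less RNA per cell cannot be told apart.

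The targeted gene was examined first, with the rest of its network. Ccnd2 (ENSMUSG00000000184), at 127125162 to 127152193 of chromosome 6 in the mm10 build, had 73.9, 77.0 and 83.5 CPM in Vec 1, 2 and 4. In CCND2mut 1, 2 and 3 it had 12.2, 55.9 and 49.1 CPM. All 3 CCND2mut values lay below all Vec values, and the difference of -1.0 (SE 0.52) had an adjusted p of 0.168 in edgeR. Counts at the mouse gene thus went against a label of added cyclin D2, and the sources used here do not give the species of the transgene. Directions below are therefore between libraries labelled Vec and CCND2mut. Ccnd1, another D-type cyclin, went from 4.80, 6.15 and 5.47 CPM to 0.936, 0.962 and 0.703 CPM (-2.65, SE 0.34). Cdk6, the kinase partner most used in blood cells, went from 836, 1624 and 1374 CPM to 401, 214 and 344 CPM (-2.0, SE 0.34). Both groups were thus clear of each other for Ccnd1 and Cdk6, while Cdk4 (0.11, adjusted p = 0.583 in edgeR) and Ccnd3 (-0.58, adjusted p = 0.0637) did not pass.

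Cdkn2a and Cdkn2b, INK4 inhibitors of CDK4 and CDK6, rose from almost no reads. Cdkn2a, which encodes p16 and p19ARF (chromosome 4, 89274471 to 89294653), was listed at 0.176, 0.0661 and 0 CPM in Vec and 8.6, 14.1 and 35.3 CPM in CCND2mut (7.75, SE 0.98, adjusted p = 0.00288 in edgeR). The next gene, Cdkn2b, had 2 counts over the 3 Vec libraries and 1.17, 3.98 and 10.3 CPM in CCND2mut, a ratio of 122 with a 95% counting interval of 33.4 to 1012. Both inhibitors were lowest in CCND2mut 1 and highest in CCND2mut 3, so that the libraries kept the same order at the 2 genes. Of 31 tested genes around D-type cyclins, their kinases and inhibitors and RB, 10 rose and 5 fell (median 0.11), against 20% rising, 21.2% falling and a median of -0.01 over all tested genes. Those that rose included the E2F partners and targets E2f1 (1.2), Tfdp1 (0.94), Rbl1 (1.04) and E2f6 (1.24), and E2f5 (-2.28), Tfdp2 (-1.30) and Ambra1 (-1.04), an adaptor that targets D-type cyclins for degradation, fell. The 10 risen members became 6 without CCND2mut 3 and 4 without either Vec 2 or Vec 4, and the median was 0.04 without CCND2mut 1, 0.01 without Vec 4 and 0.18 without Vec 1. Runx1 (-1.06, SE 0.24) and Runx1t1 (-1.08, SE 0.18) also fell, and counts at either can hold reads of the fusion.

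Over all genes, 6095 of 14796 (41.2%) passed the threshold, 2953 higher and 3142 lower in CCND2mut, and the groups did not overlap at 57.6%. Falls were deeper than rises: the median fallen gene was 3.80-fold lower and the median risen gene 2.33-fold higher. More than 8-fold changes were called for 1061 fallen and 431 risen genes. Leaving out 1 library at a time gave 4034 to 5768 calls, the fewest without Vec 4, where 1828 rose and 2206 fell, and 1919 rose without CCND2mut 3.

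**Figure D1:**
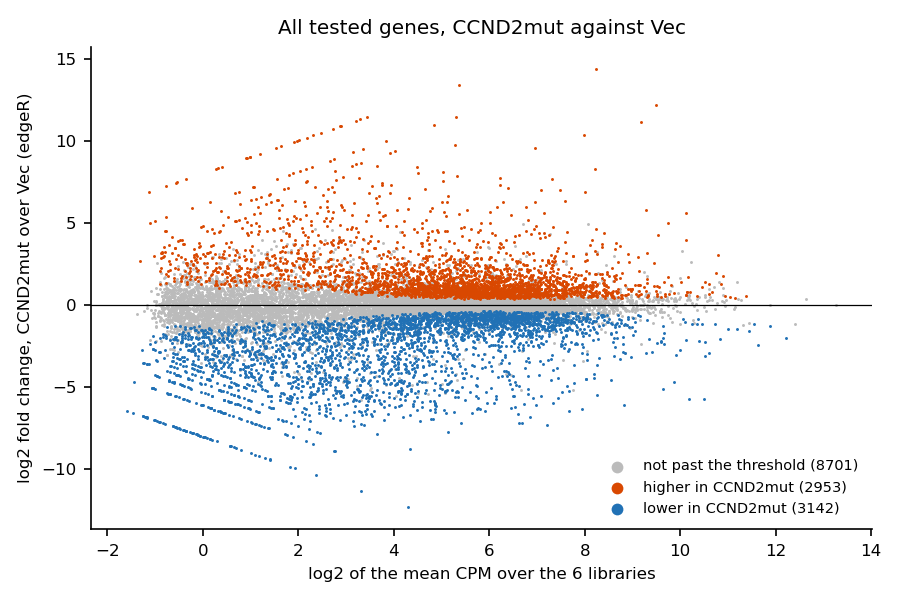
Each point is 1 of 14796 tested genes, with the log2 of its mean CPM over the 6 libraries on the x axis and its fitted log2 fold change, CCND2mut over Vec, on the y axis. The 2953 risen and 3142 fallen genes are coloured, and the slanted lines are genes with only a few counts in 1 group. More of the fallen genes (1061) than of the risen genes (431) changed by more than 8-fold.

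The largest rises held a gene cluster of stefins, small inhibitors of cysteine proteases that neutrophil precursors express. BC100530 (chromosome 16, 36359382 to 36367748) was listed at 0.878, 0 and 0 CPM in Vec and 1889, 1069 and 1364 CPM in CCND2mut. Stfa1 went from 1.41, 0.0661 and 0 CPM to 2427, 330 and 699 CPM, and Stfa3 from 1.05, 0.0661 and 0 CPM to 818, 371 and 336 CPM. The same stretch of chromosome 16, from 36210403 to 36455392, holds Gm5416, at least 319-fold higher from 0 counts in Vec, and 2010005H15Rik, with 1 count in Vec and 119, 45.7 and 70.7 CPM in CCND2mut. These genes are near-copies of each other, so that reads can be split between them, but in each of the 5 every CCND2mut library was far above every Vec library. Vec 1 had the only levels above 0.1 CPM among the Vec libraries.

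Other genes with the largest rises had 0 counts in all Vec libraries. Dagla, which makes an endocannabinoid, stood at 20.4, 15.1 and 29.4 CPM in CCND2mut, at least 348-fold higher. Plekhh2 stood at 14.8, 11.7 and 13.1 CPM (at least 213-fold higher), and Trpv3, a cation channel of skin, at 14.7, 9.81 and 5.36 CPM (at least 163-fold higher). These 3 varied less across the CCND2mut libraries than Retnla, a secreted protein of alternatively activated macrophages. Retnla had 37.2, 1026 and 749 CPM from 1 count in Vec. Cyp2a5, a cytochrome P450, had the same unevenness (2.69, 159 and 86.3 CPM, at least 1289-fold higher). Igf2bp3, an RNA-binding protein of fetal and leukaemic cells (chromosome 6, 49085223 to 49214957), went from 0.293, 0.463 and 0.249 CPM to 84.3, 75.5 and 78.4 CPM (7.87, SE 0.25, adjusted p = 0.000355 in edgeR). Its 3 CCND2mut libraries lay close together, far above all Vec libraries.

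Among the largest falls, 7 of 15 genes had 0 counts in all 3 CCND2mut libraries. Pgr, the progesterone receptor, went from 54.9, 44.4 and 19.3 CPM in Vec to 0 (at least 641-fold lower), and Sytl4, a regulator of vesicle release, from 32.0, 13.8 and 13.9 CPM to 0 (at least 327-fold lower). Ttc8, a part of the cilium's BBSome, went from 8.66, 10.4 and 12.2 CPM to 0 (at least 168-fold lower). Rag1, the recombinase of lymphocyte receptors, was at least 129-fold lower. Its Vec libraries were uneven, with 18.6 CPM in Vec 1 and 1.46 and 3.04 CPM in Vec 2 and 4. Gfra1, a receptor of GDNF, was even (11.5, 16.7 and 12.7 CPM) and had 1 count over CCND2mut, a ratio of 655 (95% interval 117 to 25890). The 15 also held Nxph1, Hdx, Tspan6, Pard3b, Rprm, Dcpp2, Nkx2-3, Vpreb3, Zfp2 and Emcn.

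**Figure D2:**
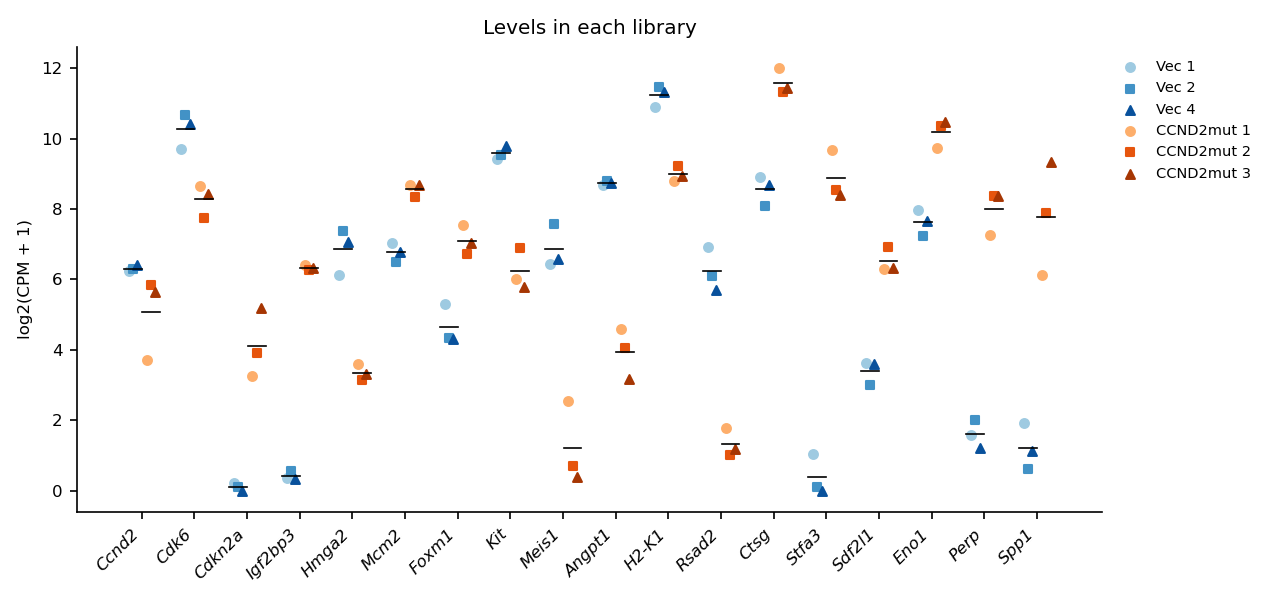
Levels of 18 genes of the network and the lists as log2(CPM + 1) in each library, blue for Vec and orange for CCND2mut, with a bar at each group's mean (n = 3). The groups do not overlap at any of the 18 genes, and over all tested genes this holds for 57.6%. Most of the 18 were named because they passed the threshold, which favours such a count. Igf2bp3 is even across CCND2mut, and Spp1 and Meis1 differ between the CCND2mut libraries.

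The gene lists described next were written with earlier results of these data known, and their counts are descriptions with no test of the list.

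**Figure D3:**
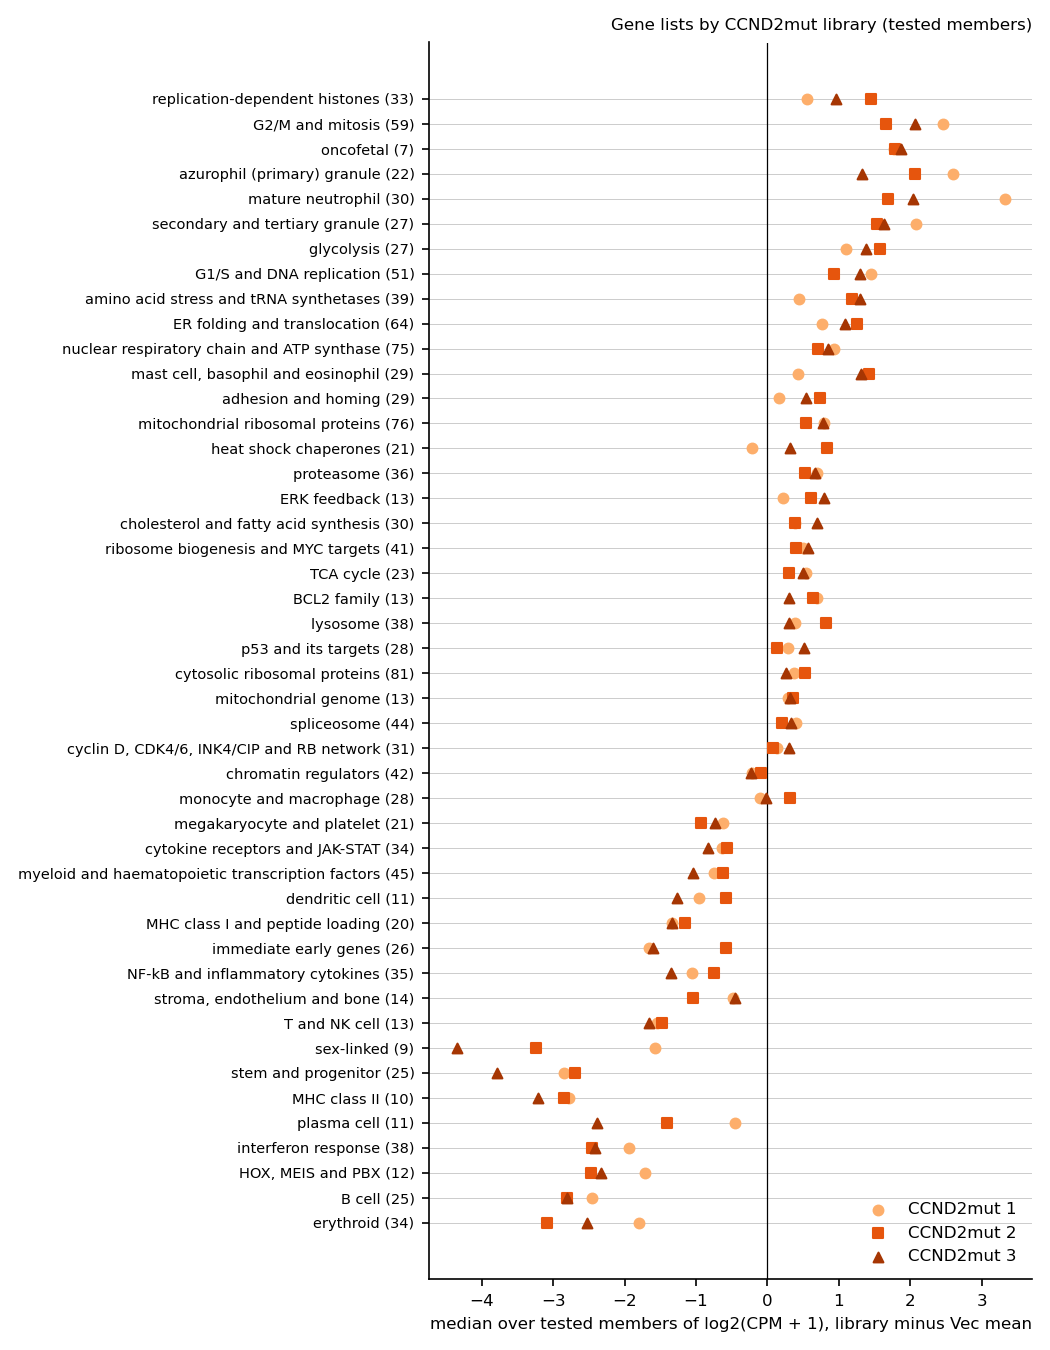
For each of 46 gene lists, the median over its tested members (number in parentheses) of log2(CPM + 1) in each CCND2mut library minus the mean of the Vec libraries. Lists are ordered by the fitted median, the 3 libraries lie on the same side of 0 for all lists but heat shock chaperones and monocyte and macrophage, and sex-linked and plasma cell lists spread most between libraries.

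Genes of cell division were higher in CCND2mut. Of 59 tested G2/M and mitosis genes 48 rose and 0 fell (median 1.94), and of 51 G1/S and DNA replication genes 37 rose and 1 fell (median 1.26), against 20% rising over all genes. Foxm1, the factor that drives mitotic genes, went from 38.8, 19.1 and 18.9 CPM to 186, 105 and 130 CPM (2.46, SE 0.38). Mcm2, a subunit of the replicative helicase, went from 129, 88.3 and 110 CPM to 409, 322 and 407 CPM (1.8, SE 0.20). In both, Vec 1 was the highest Vec library and lay below all 3 CCND2mut libraries. Cdc45 (2.13) and Mcm10 (2.42), which load or start the helicase, Chek1 (1.52), the replication checkpoint kinase, and the CDK subunits Cks1b (1.86) and Cks2 (1.59) also rose, and the clamp loader subunit Rfc2 fell (-0.67). The 48 risen mitosis genes became 30 without CCND2mut 3, 30 without Vec 2 and 23 without Vec 4, and the 37 became 21 without Vec 4. The fall of Rfc2 was lost without CCND2mut 3.

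Replication-dependent histone genes, whose messages mostly lack a poly(A) tail, were measured at low levels. Of 33 tested 16 rose and 0 fell (median 1.98), among them Hist1h2ao, from 0.936, 0.198 and 0.683 CPM to 4.51, 5.07 and 3.77 CPM. Their summed level did not separate the groups, with 373 to 574 CPM in Vec and 208, 637 and 378 CPM in CCND2mut. The 16 became 3 without CCND2mut 2, 5 without CCND2mut 3, 3 without Vec 2 and 4 without Vec 4.

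Nuclear genes of mitochondria were higher in CCND2mut. Of 75 nuclear genes of the respiratory chain and ATP synthase 61 rose and 1 fell (median 0.87), of 76 mitochondrial ribosomal proteins 45 rose and 1 fell (median 0.76), and of 23 genes of the TCA cycle 12 rose and 0 fell (median 0.46). Cycs, cytochrome c, went from 41.8, 45.7 and 42.6 CPM to 136, 141 and 193 CPM (1.85, SE 0.17), and Uqcrq, of complex III, from 36.6, 36.2 and 35.8 CPM to 107, 176 and 169 CPM (2.06, SE 0.21). The single falls were Ndufs3 (-0.78), of complex I, and Mrpl24 (-0.43), and the call of Mrpl24 was lost without any single library. The 13 genes of the mitochondrial genome itself gave 0 calls in edgeR (median 0.37), and 5 rose without Vec 2. Of the TCA cycle genes, 1 fell without CCND2mut 1. Without CCND2mut 3, 28 mitochondrial ribosomal proteins and 7 genes of the TCA cycle rose.

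Where these genes lie moved with their difference. Chromosomes 6 and 15, whose medians are given below, hold 10 of the 75 respiratory genes, with a median of 1.28 and 9 risen, against 0.77 and 52 of 65 on the other chromosomes. For mitochondrial ribosomal proteins the medians were 1.5 on these 2 chromosomes (7 of 7 risen, among them Mrpl51 and Mrpl19) and 0.69 elsewhere (38 of 69). Of 81 cytosolic ribosomal proteins 26 rose (32.1%) and 1 fell (1.2%), against 20% and 21.2% over all genes (median 0.39). On these chromosomes 4 of 5 rose with a median of 1.07, and elsewhere 22 of 76 with a median of 0.37. Rpl8, on chromosome 15, went from 1037, 1115 and 1085 CPM to 2726, 2631 and 2506 CPM (1.28, SE 0.14). The groups were clear of each other, with little spread in either. Of the 26 cytosolic ribosomal proteins, 10 rose without Vec 4, 14 without Vec 1, and 15 or 16 without any 1 CCND2mut library, and the 1 fall was lost without CCND2mut 1, CCND2mut 3, Vec 1 or Vec 2. Of 41 genes of ribosome biogenesis and MYC targets 19 rose and 1 fell (median 0.49), with the snoRNP proteins Nhp2 (1.41) and Gar1 (0.96) and the RNA polymerase I subunit Polr1a (1.71) among the risen. The 19 became 12 without Vec 1 and 10 without CCND2mut 3. Of 44 spliceosome genes 15 rose (34.1%) and 0 fell (median 0.35), with 8 risen without CCND2mut 3 and 9 without Vec 4. Of 36 proteasome genes 24 rose and 0 fell (median 0.64).

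Genes that fold and move proteins in the endoplasmic reticulum (ER) were higher. Of 64 tested 47 rose and 0 fell (median 1.07). Sdf2l1, a partner of the chaperone BiP, went from 11.3, 6.94 and 11.1 CPM to 77.8, 120 and 79.6 CPM (3.24, SE 0.28). Edem1, which sends misfolded glycoproteins to degradation, went from 115, 120 and 101 CPM to 376, 492 and 420 CPM (1.94, SE 0.16). In these and in Creld2 (2.01), Rpn2 (1.95) and Ero1l, the oxidase that renews disulphide bonds (3.55, named here after its values were seen), CCND2mut 2 was the highest library. On chromosomes 6 and 15, 7 of 7 members rose with a median of 1.94, and the other 57 had a median of 0.99 with 40 risen. The transcription factor Xbp1, which drives many of these genes, rose from 114, 124 and 132 CPM to 217, 237 and 229 CPM (0.88, SE 0.13).

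Amino acid stress genes and tRNA synthetases rose to different extents in the 3 CCND2mut libraries. Of 39 tested 25 rose and 2 fell (median 1.15), and the medians by library were 0.44 in CCND2mut 1, 1.19 in CCND2mut 2 and 1.30 in CCND2mut 3. Aars, the alanyl-tRNA synthetase, went from 67.9, 46.5 and 71.0 CPM to 138, 297 and 301 CPM (1.99, SE 0.35), and Pycr1, of proline synthesis, from 1.29, 0.793 and 1.55 CPM to 4.39, 17.1 and 13.2 CPM. CCND2mut 1 was the lowest of the 3 in both, and above every Vec library. Trib3, a target of ATF4, had the same order with 6.03, 89.3 and 76.1 CPM against 1.93 to 3.04 CPM in Vec, and so did Asns, asparagine synthetase, with 43.5, 189 and 147 CPM against 1.85 to 13.8 CPM (both chosen after their values were seen). The 25 became 16 without CCND2mut 3, 16 without Vec 2 and 12 without Vec 4, and the 2 falls, Vldlr and Ppp1r15a, became 1 without any single library other than CCND2mut 2.

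Of 27 glycolysis genes 16 rose and 2 fell (median 1.41). Eno1, an enolase, went from 252, 150 and 202 CPM to 849, 1303 and 1416 CPM (2.56, SE 0.29), and Hk3, the hexokinase of myeloid cells, from 175, 108 and 93.9 CPM to 1002, 998 and 1389 CPM (3.17, SE 0.30). Pdk1, a brake on pyruvate entry into mitochondria, fell from 71.8, 79.2 and 73.6 CPM to 18.6, 21.3 and 19.6 CPM (-1.92, SE 0.13). Pfkm, the muscle form of phosphofructokinase, was the other to fall (-0.94). Of 30 genes of cholesterol and fatty acid synthesis 10 rose (33.3%) and 2 fell (6.7%), against 20% and 21.2% over all genes (median 0.51). Sqle (2.53) was among those up, and the elongase Elovl6 (-1.86) and Scd1 (-4.47) were down. The 10 became 6 without CCND2mut 3 and 6 without Vec 2, and the 2 falls became 1 without any single library other than CCND2mut 1. Of 38 lysosome genes 13 rose (34.2%) and 3 fell (7.9%), against 20% and 21.2% over all genes (median 0.42). Arsb was at 2.97 and Ctsz at 2.38, and 8 rose without either Vec 2 or Vec 4. The 3 falls became 1 without CCND2mut 3, Vec 2 or Vec 4.

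Interferon response genes fell as a group. Of 38 tested 33 fell and 0 rose (median -3.63), against 21.2% falling over all genes. Oas2, which makes the signal for RNase L, went from 12.8, 7.47 and 12.4 CPM to 0.351, 0.321 and 0.447 CPM (-4.84, SE 0.40), and Irf7, the factor that amplifies interferon, from 40.9, 32.3 and 41.6 CPM to 9.89, 5.51 and 4.79 CPM (-2.50, SE 0.32). Ifi44 had 1 count over CCND2mut, a ratio of 246 (95% interval 43.8 to 9763). Irf7 was chosen after its values were seen, and 5 of the 38 did not pass. Of the receptors, Ifngr1 rose (1.17, SE 0.22).

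Antigen presentation genes fell too. Of 20 genes of MHC class I and peptide loading 13 fell and 1 rose (median -1.24). H2-K1 (chromosome 17, 33996017 to 34000333), a class I heavy chain, went from 1899, 2835 and 2560 CPM to 443, 600 and 486 CPM (-2.25, SE 0.22), and B2m, the shared light chain, from 1268, 1426 and 1367 CPM to 259, 356 and 150 CPM (-2.41, SE 0.32). Class I genes have near-identical copies whose reads can be split. Psmb8 and Tap1 fell by the same amount (-1.79 each), and Psme2, of the proteasome activator, was the 1 member to rise (0.75), a call lost without CCND2mut 2, CCND2mut 3 or Vec 4, and 2 rose without CCND2mut 1. Among MHC class II genes, 9 of 10 fell and 0 rose (median -3.55), with H2-Ab1 going from 95.5, 45.8 and 39.6 CPM to 4.92, 3.78 and 2.36 CPM. The summed level of class II was 286 to 698 CPM in Vec and 24.1 to 40.6 CPM in CCND2mut. B cell and dendritic cell markers moved the same way (below), and their part in this fall was not tested.

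Genes of stem and progenitor cells fell. Of 25 tested 18 fell and 0 rose (median -3.38). Cd48, a SLAM family receptor, went from 181, 219 and 259 CPM to 10, 3.65 and 1.34 CPM (-5.45, SE 0.75), and Flt3, a cytokine receptor of early progenitors, from 60.1, 141 and 83.3 CPM to 8.08, 9.62 and 3.58 CPM (-3.74, SE 0.50). Eng (-2.99) and Adgrg1 (-1.74), surface proteins of stem cells, fell in all 3 libraries. Of the 3 stem markers fixed for the tissue check, Kit fell (-3.29, SE 0.34), while Cd34, at 431, 634 and 547 CPM in Vec and 417, 447 and 142 CPM in CCND2mut, and Ly6a, at 212, 170 and 432 CPM and 19.4, 138 and 7.22 CPM, did not pass. Of 12 HOX, MEIS and PBX genes 8 fell and 0 rose (median -4.35, or -3.80 with the member without CCND2mut counts at its bound), and with a stricter filter 2 of 6 fell. Hoxa7 went from 8.02, 12.7 and 7.08 CPM to 0.234, 0 and 0 CPM, and Hoxa3 from 1.23, 1.72 and 1.18 CPM to 0, at least 22-fold lower.

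Of 45 myeloid and haematopoietic transcription factors 21 fell and 5 rose (median -0.92). Bach2, a repressor known from lymphoid cells, went from 52.0, 47.1 and 46.4 CPM to 1.93, 4.04 and 2.04 CPM (-4.18, SE 0.34), and Cbfa2t3, a corepressor of the same family as the ETO partner of the fusion, from 170, 216 and 272 CPM to 37.7, 38.9 and 47.0 CPM (-2.41, SE 0.21). Mitf (-4.0), Klf4 (-3.99) and Id3 (-3.77) also fell. Nfil3 rose from 15.6, 15 and 11.7 CPM to 78.7, 212 and 103 CPM (3.22, SE 0.41), and Gfi1, a repressor needed for neutrophils, rose by less (0.92). Spi1, which encodes PU.1, stood at 127, 76.2 and 71.8 CPM in Vec and 190, 108 and 127 CPM in CCND2mut (adjusted p = 0.144 in edgeR), and Myc at 83.0, 78.4 and 64.6 CPM and 101, 48.5 and 63.7 CPM (adjusted p = 0.823), both named after their values were seen. The 21 falls became 13 without CCND2mut 3, and the 5 rises became 9 without Vec 1, 3 without Vec 2 and 2 without Vec 4.

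Of 34 cytokine receptors and JAK-STAT genes 13 fell, 2 rose and 19 did not pass (median -0.92, or -0.57 without Vec 1). Il6st, the shared receptor of the IL-6 family, went from 33.1, 33.8 and 32.8 CPM to 2.46, 1.15 and 0.447 CPM (-4.60, SE 0.58), and the kinases Pim1 (-3.02) and Pim2 (-3.64), targets of STAT5, fell with Stat5a (-2.22) and Stat5b (-1.74). Csf2ra, the receptor chain for GM-CSF, rose from 86.2, 39.8 and 39.3 CPM to 286, 294 and 205 CPM (2.25, SE 0.37).

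Inflammatory genes fell more often than they rose. Of 35 NF-kB and cytokine genes 16 fell (45.7%) and 4 rose (11.4%), against 21.2% and 20% over all genes (median -1.25). Nfkbid went from 719, 966 and 751 CPM to 149, 117 and 48.3 CPM (-2.95, SE 0.43), and Ccl4, a chemokine, from 497, 365 and 140 CPM to 15.3, 24.3 and 6.77 CPM (-4.43, SE 0.68). The 4 that rose were the neutrophil chemokines Cxcl1 and Cxcl3, Il6 and Ccl9. Cxcl3 went from 0.0585, 0.727 and 0.249 CPM to 23.4, 88.0 and 85.1 CPM (7.57, SE 0.91), and Il6 from 2.58, 0.661 and 1.74 CPM to 16.2, 165 and 93.1 CPM (5.77, SE 1.0). CCND2mut 1 was again the lowest of the 3 in both.

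Immediate early genes, which growth factor signals induce within minutes, fell. Of 26 tested 13 fell and 3 rose (median -1.24), and the summed level was 33940 to 45633 CPM in Vec and 11042 to 21627 CPM in CCND2mut. Junb went from 3911, 4301 and 4325 CPM to 1356, 1585 and 1290 CPM (-1.57, SE 0.16), and Nr4a1 from 3191, 7089 and 5626 CPM to 806, 1240 and 938 CPM (-2.41, SE 0.34). Fosl1 rose from 7.20, 4.70 and 2.36 CPM to 54.9, 155 and 103 CPM (4.45, SE 0.57), with Ier3 (3.0) and Egr2 (2.78). These genes made up 6 of the 10 most abundant falls, a list that also held Ddx5, Dusp2, Lilr4b and Hbb-bs. The 13 falls became 8 without CCND2mut 3. Of 13 ERK feedback genes 4 rose and 4 fell (30.8% each, against 20% and 21.2% over all genes). Their median was 0.61, or 0.34 without CCND2mut 3 and 0.32 without Vec 1. Rasa2 (2.0), Spred2 (1.73), Etv4 (5.64) and Dusp6 (1.51) were up. Dusp2 (-3.11), Phlda1 (-2.21), Dusp4 (-1.59) and Spred1 (-1.06) were down.

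Of 22 azurophil granule genes, which neutrophil precursors express, 11 rose and 0 fell (median 1.59, or 2.47 without Vec 1). Ctsg, cathepsin G (chromosome 14, 56099881 to 56102574), went from 481, 268 and 410 CPM to 4094, 2565 and 2769 CPM (3.02, SE 0.31), and Prtn3, proteinase 3, from 85.8, 20.2 and 14.7 CPM to 976, 268 and 292 CPM (3.67, SE 0.91). Vec 1 was the highest Vec library and CCND2mut 1 the highest CCND2mut library in both. Elane, neutrophil elastase, had the same order, with 84.6, 5.55 and 5.03 CPM against 1313, 205 and 429 CPM (4.35, SE 1.41, adjusted p = 0.0496 in edgeR). Prtn3 and Elane were among the myeloid markers fixed for the tissue check, but were picked for this paragraph after their values were seen. The 11 became 6 without Vec 2, 7 without Vec 4 and 15 without Vec 1, and 17 without both Vec 1 and CCND2mut 1, and 1 fell without CCND2mut 1, CCND2mut 2 or Vec 2.

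Later neutrophil genes were more uneven. Of 27 secondary and tertiary granule genes 8 rose (29.6%) and 1 fell (3.7%), with a median of 1.45. Of 30 mature neutrophil genes 11 rose (36.7%) and 1 fell (3.3%), with a median of 1.54. Over all genes 20% rose and 21.2% fell. Without Vec 1, 17 and 21 rose, with medians of 2.91 and 4.29, and the median of secondary and tertiary granule genes was 0.95 without Vec 2 and 0.94 without Vec 4. The summed level of the mature list was 9374, 2069 and 1846 CPM in Vec and 24784, 12840 and 9267 CPM in CCND2mut, so that Vec 1 was at the level of CCND2mut 3. Among the risen, Olfm4 went from 64.0, 1.85 and 1.37 CPM to 1458, 396 and 1806 CPM (5.76, SE 1.74) and Anxa3 from 33.1, 1.65 and 1.74 CPM to 189, 262 and 300 CPM. Lactoferrin, Ltf, is among the last granule proteins to be made. It stood at 2276, 69.9 and 105 CPM in Vec and 276, 12.9 and 31.4 CPM in CCND2mut, where the groups overlap (adjusted p = 0.217 in edgeR). Ltf was a marker fixed for the tissue check, but was named here after its values were seen. The 8 became 4 without CCND2mut 1, 4 without CCND2mut 2, 3 without CCND2mut 3, 1 without Vec 2 and 2 without Vec 4. The 1 fall of the secondary and tertiary granule list was lost without CCND2mut 2 or any 1 Vec library, and 2 mature neutrophil genes fell without CCND2mut 1.

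Of 28 monocyte and macrophage genes 4 rose (14.3%) and 3 fell (10.7%), against 20% and 21.2% over all genes (median -0.26). The median turned to 1.0 without Vec 1, and was -0.77 without Vec 2 and -0.50 to -0.47 without CCND2mut 1, CCND2mut 3 or Vec 4. Fcgr3, an Fc receptor, went from 154, 90.9 and 111 CPM to 458, 961 and 729 CPM (2.59, SE 0.34), and Cd14, of the endotoxin receptor, from 26.0, 11.1 and 8.02 CPM to 428, 250 and 135 CPM (4.17, SE 0.64). Ly6c2, a marker of inflammatory monocytes, rose with the lowest value in CCND2mut 1 (897, 1664 and 4046 CPM), and F13a1 rose (4.08). Cd163, the haemoglobin scavenger receptor, fell from 59.2, 36.8 and 42.7 CPM to 4.80, 6.73 and 8.94 CPM (-2.76, SE 0.31), and Apoe and Ms4a6c fell. The 4 rises became 10 without Vec 1 and 2 without CCND2mut 2, without Vec 2 or without Vec 4, and the 3 falls became 6 without Vec 2.

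Of 29 mast cell, basophil and eosinophil genes 7 rose (24.1%) and 4 fell (13.8%), against 20% and 21.2% over all genes (median 0.81). The median was 2.05 without Vec 1, 0.41 without Vec 2 and 0.51 without CCND2mut 2. Siglecf, a receptor of eosinophils, went from 6.96, 2.91 and 7.39 CPM to 105, 99.9 and 63.5 CPM (3.96, SE 0.42). Hdc, which makes histamine, went from 158, 113 and 130 CPM to 334, 4734 and 1269 CPM (3.98, SE 0.95), and Hgf from 14.4, 13.4 and 16.9 CPM to 34.0, 539 and 294 CPM. CCND2mut 2 was the highest in Hdc, Hgf, Mcpt4, Tpsab1 and Slc6a4, and CCND2mut 1 the lowest except in Siglecf. Kit and the vesicle monoamine carrier Slc18a2 (-3.67) fell. The summed level of the list, 9905 to 12587 CPM in Vec and 3145, 18937 and 6188 CPM in CCND2mut, overlapped between the groups. The 7 became 11 without Vec 1, 4 without Vec 2 and 3 without Vec 4, and the 4 falls became 2 without CCND2mut 3 or without Vec 4.

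Of the lymphoid lists, B cell genes had the most falls. Of 25 B cell genes 21 fell and 0 rose (median -4.68). Cd72, a coreceptor, went from 42.6, 25.9 and 18.5 CPM to 1.05, 2.18 and 1.15 CPM (-4.31, SE 0.47), and Spib, a B cell factor, from 58.5, 5.09 and 15 CPM to 0.761, 0.192 and 0.192 CPM (-6.05, SE 1.17). Vec 1 was the highest in both, and Vec 2 and 4 lay above all CCND2mut libraries. The 21 became 13 without CCND2mut 2 and 10 without CCND2mut 3. Dntt, which adds bases to lymphocyte receptor genes and is made by early lymphoid cells, went from 234, 341 and 304 CPM to 5.50, 0 and 0 CPM (named after its values were seen). Among genes of T and NK cells, 6 of 13 fell and 0 rose (median -1.81), with Ccl5 going from 8.66, 1.98 and 2.92 CPM to 0.293, 0.0641 and 0.0639 CPM, and 10 of 20 tested fell without CCND2mut 1, with a median of -5.06. Without any 1 of CCND2mut 2, CCND2mut 3, Vec 2 and Vec 4 the median was -4.13 to -3.52, but over 16 to 20 tested genes instead of 13. Without Vec 1, 2 rose. The T cell marker Cd3e stood at 1.93, 0.397 and 0.497 CPM in Vec and 0.176, 0 and 0 CPM in CCND2mut. Of 11 plasma cell genes 2 fell (18.2%, against 21.2% over all genes, with 1 without CCND2mut 2 and 0 without CCND2mut 3) and 1 rose. Of 11 dendritic cell genes 5 fell and 0 rose (median -1.16), with Irf8 going from 55.4, 16.7 and 19.5 CPM to 5.68, 2.18 and 1.60 CPM, and 3 fell without Vec 2 and 1 rose without Vec 1.

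Erythroid genes were lower in all 3 CCND2mut libraries, but their call rested on single libraries. Of 34 tested 11 fell (32.4%, against 21.2% over all genes) and 0 rose (median -4.79, or -2.23 without Vec 1). The summed level was 21287, 1579 and 5439 CPM in Vec and 965, 578 and 702 CPM in CCND2mut. Hba-a1, an alpha globin, stood at 5652, 42.8 and 1171 CPM in Vec and 92.6, 10.7 and 27.3 CPM in CCND2mut, so that Vec 2 lay inside the range of CCND2mut. Car2, a carbonic anhydrase, went from 1157, 789 and 734 CPM to 34.2, 0.385 and 5.24 CPM (-6.07, SE 1.46), with no overlap. The 11 became 5 without Vec 1, 23 without Vec 2, 6 without Vec 4, and 4, 2 and 1 without CCND2mut 1, 2 and 3, and 1 rose without Vec 1. DESeq2 called 26, limma-voom 3, edgeR with a 2-fold null 2 and edgeR with no filter 1. Of 21 megakaryocyte and platelet genes 7 fell (33.3%) and 3 rose (14.3%), against 21.2% and 20% over all genes (median -0.42). The median was -1.23 without CCND2mut 1, -0.91 without CCND2mut 2, -0.75 without Vec 2 and -0.68 without Vec 4. The 7 falls became 4 without Vec 2 and 3 without Vec 4, and the 3 rises became 5 without Vec 1 and 0 without CCND2mut 2, CCND2mut 3, Vec 2 or Vec 4. Of 14 stroma, endothelium and bone genes 2 fell (14.3%, against 21.2% over all genes), or 5 without CCND2mut 1. The other calls were 3 rises (21.4%, against 20%). One of those that rose, Spp1 (osteopontin), which macrophages also make, went from 2.81, 0.529 and 1.18 CPM to 68.7, 237 and 639 CPM (7.69, SE 1.14).

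Genes of cell death and p53 rose and fell, with falls near the share of all genes. Of 13 BCL2 family genes 5 rose (38.5%) and 3 fell (23.1%), against 20% and 21.2% over all genes (median 0.44). Pmaip1 (NOXA), which sets off cell death, went from 11.9, 9.06 and 4.54 CPM to 288, 312 and 130 CPM (4.83, SE 0.52), and its partner Mcl1, which protects cells, fell from 1525, 1859 and 2039 CPM to 897, 1051 and 519 CPM (-1.14, SE 0.29). Bax (1.36), Bak1 (0.98), Bid (1.64) and the protective Bcl2 (1.53) rose, and Bmf and Bcl2l11 fell. The 3 falls became 1 without CCND2mut 3 or Vec 2 and 0 without Vec 4. Of 28 p53 genes 9 rose (32.1%) and 6 fell (21.4%), with a median of 0.42. Perp (chromosome 10, 18845020 to 18857073), a membrane protein and p53 target, went from 1.99, 3.04 and 1.30 CPM to 154, 330 and 327 CPM (7.0, SE 0.51), while Sesn1 went from 151, 151 and 156 CPM to 35.8, 34.0 and 23.6 CPM (-2.29, SE 0.19). Trp53 itself fell (-0.68). Cdkn1a (p21) stood at 51.2, 260 and 219 CPM in Vec and 486, 482 and 382 CPM in CCND2mut (1.35, adjusted p = 0.0993 in edgeR, named after its values were seen).

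Of 42 chromatin regulators 12 fell (28.6%) and 5 rose (11.9%), against 21.2% and 20% over all genes (median -0.18, or -0.11 without Vec 2). Tet1, a DNA demethylating enzyme, went from 14.1, 16.9 and 14.9 CPM to 0.410, 0.257 and 0 CPM (-6.04, SE 0.80), and Ezh1 fell (-1.33) while its paralogue Ezh2, on chromosome 6, rose (0.97), as did Suz12, Jarid2, Dnmt1 and Hdac1. The 5 rises became 3 without CCND2mut 1 or Vec 1, and 1 without CCND2mut 3 or Vec 4. Of 29 adhesion and homing genes 6 rose (20.7%) and 5 fell (17.2%), against 20% and 21.2% over all genes (median 0.77, or 0.36 without CCND2mut 2 and 0.50 without CCND2mut 3). S1pr1, which guides exit from tissues, went from 87.4, 62.6 and 85.3 CPM to 4.86, 1.22 and 0.128 CPM (-5.23, SE 1.0). Emb (2.74), Itgal (1.2) and Cxcr4 (1.81) were among those that rose. The 6 rises became 13 without Vec 1 and 3 without CCND2mut 2.

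Of 13 oncofetal genes 7 were tested, 3 of which rose and 3 fell (42.9% each, against 20% and 21.2% over all genes). Beside Igf2bp3, Hmga1, a chromatin protein, rose from 92.0, 92.7 and 63.6 CPM to 282, 284 and 300 CPM (1.8, SE 0.18), and Arid3a rose (2.15). Its paralogue Hmga2 fell from 68.7, 165 and 134 CPM to 11.1, 7.82 and 8.88 CPM (-3.73, SE 0.37), with Igf2bp2 (-3.83) and Plag1 (-3.30). Lin28a stood at 8.37, 0.132 and 0.435 CPM in Vec and 22, 23.3 and 27.5 CPM in CCND2mut, with no overlap, and did not pass (adjusted p = 0.106 in edgeR). Mycn, Igf2, Lin28b, H19, Dlk1 and Igf2bp1 did not pass the filter on low counts and were not tested. H19, an imprinted RNA, stood at 0.585, 0.331 and 0.497 CPM in Vec and 0.117, 19.6 and 22.5 CPM in CCND2mut.

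Sex-linked genes differed between libraries of each group. Ddx3y, on the Y chromosome, stood at 130, 309 and 62.5 CPM in Vec and 26.4, 0 and 0 CPM in CCND2mut, where 0 counts allow up to 0.192 CPM. Eif2s3y, Kdm5d and Uty had the same pattern, with 22.2, 5.62 and 3.51 CPM in CCND2mut 1 and 0 counts in CCND2mut 2 and 3. None of the 4 passed. Xist, which silences an X chromosome, stood at 164, 10.4 and 852 CPM in Vec and 4.16, 11.3 and 4.73 CPM in CCND2mut (-5.67, SE 1.56, adjusted p = 0.0295 in edgeR). Vec 1 and Vec 4 thus held both Y-linked reads and Xist. Of the 9 tested, 2 fell (22.2%) and 1 rose (11.1%), against 21.2% and 20% over all genes. Without CCND2mut 1, 5 fell and 0 rose. The 2 falls became 1 without CCND2mut 2, CCND2mut 3 or Vec 4. The 1 rise was lost without any single library. Kdm6a (-1.11) fell, Eif2s3x (0.58) rose, and Ddx3x (-0.45) and Kdm5c (-0.02) did not pass. The sex of donors and recipients is not given by library.

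Differences by chromosome were measured over 10107 protein-coding genes averaging 5 CPM or more, as the median of log2(CPM + 1) in a library minus the mean of the Vec libraries. On chromosome 15 (414 genes) the medians were 0.66, 0.61 and 0.65 in CCND2mut 1, 2 and 3, and on chromosome 6 (491 genes) they were 0.42, 0.54 and 0.55. On the other 17 autosomes they lay between -0.18 and 0.20, and no Vec library was beyond 0.06 on any autosome. Of tested protein-coding genes, 46.0% on chromosome 15 and 38.3% on chromosome 6 rose and 12.2% and 16.5% fell, against 20.4% and 23% on the other autosomes. In the 3 CCND2wt libraries, with total counts as the scale and the median gene set to 0, the medians were -0.04 to -0.01 on chromosome 15 and 0.04 to 0.06 on chromosome 6. On that scale CCND2mut stood at 0.57 to 0.59 and 0.34 to 0.50. Gene copy number was not measured here.

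**Figure D4:**
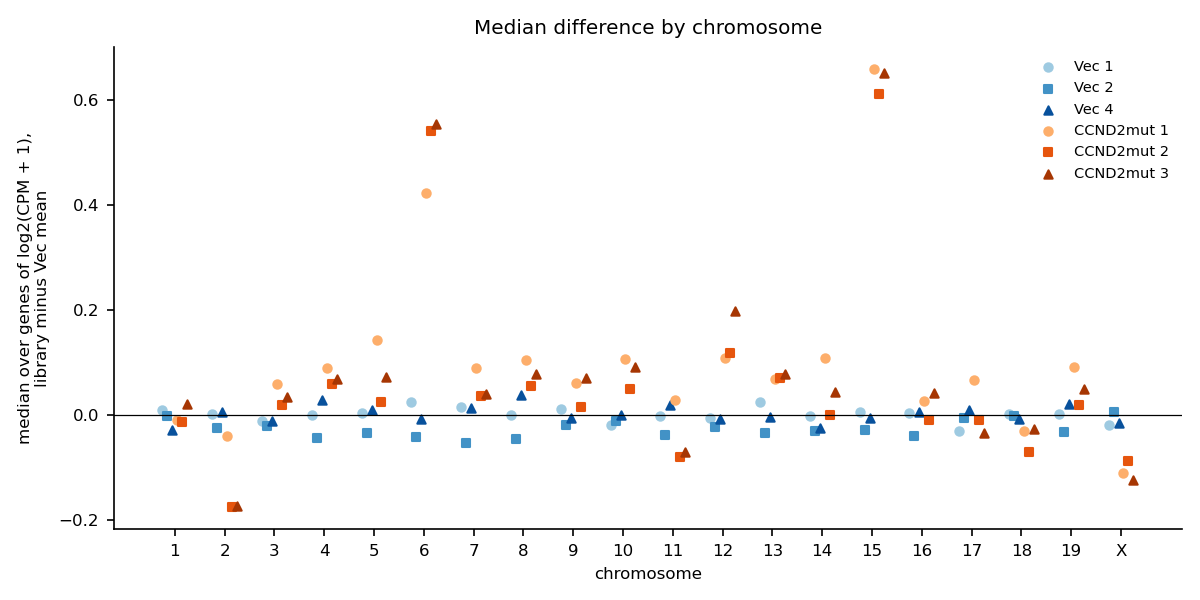
Median over genes of log2(CPM + 1) in each library minus the mean of the Vec libraries, by chromosome, for protein-coding genes averaging 5 CPM or more. The 3 CCND2mut libraries lie at 0.42 to 0.66 on chromosomes 6 and 15, and all other autosomes lie between -0.18 and 0.20.

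In windows of 10 Mb with at least 20 genes, chosen after the chromosomes were seen, all 6 windows on chromosome 15 and 6 of 12 on chromosome 6 had medians above 0.4 in each CCND2mut library. The window from 50 to 60 Mb of chromosome 15 (29 genes) was the highest, at 1.13, 0.89 and 1.14. Chromosome 2 held a stretch in the other direction. From 70 to 110 Mb all 4 windows were below -0.4 in each CCND2mut library, with -0.84, -0.98 and -1.07 from 90 to 100 Mb (39 genes). Over 70 to 120 Mb (167 genes) the medians were -0.58, -0.87 and -0.81 in CCND2mut and within 0.02 of 0 in Vec, and 90 genes fell (53.9%) and 6 rose. The other 627 genes of chromosome 2 had medians of 0.06, -0.07 and -0.03, with 22.3% falling. In CCND2wt the stretch stood at 0.09 to 0.10. Of 151 windows on all other chromosomes, 1 lay above 0.4 in each CCND2mut library (chromosome 10, 90 to 100 Mb) and 1 below -0.4 (chromosome X, 0 to 10 Mb). CCND2mut 1 had the value nearest to 0 on chromosome 6 and in this stretch of chromosome 2, but not on chromosome 15. Of the genes named above, Spi1, Rag1, Ambra1, Pdk1, Ndufs3, Spred1 and Bmf lie in this stretch, and all but Spi1 fell. Those that fell had been picked by rules that take only fallen genes, so that their direction was set by the choice. Lmo2, a factor of stem and erythroid cells (named after its values were seen), lies there too. It went from 303, 438 and 314 CPM to 82.7, 21.4 and 56.6 CPM (-2.71, SE 0.50).

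The 3 CCND2mut libraries were about as far apart as the 3 Vec libraries. Over the same 10107 genes the median SD of log2(CPM + 1) was 0.236 in CCND2mut and 0.214 in Vec, and 5431 genes (53.7%) had the larger SD in CCND2mut. An SD over 1 was found for 566 genes in CCND2mut and 437 in Vec. In CCND2mut, 338 of the 566 (59.7%) had library 1 apart from the other 2, 158 (27.9%) library 2 and 70 (12.4%) library 3, and in Vec 362 of the 437 had library 1 apart.

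**Figure D5:**
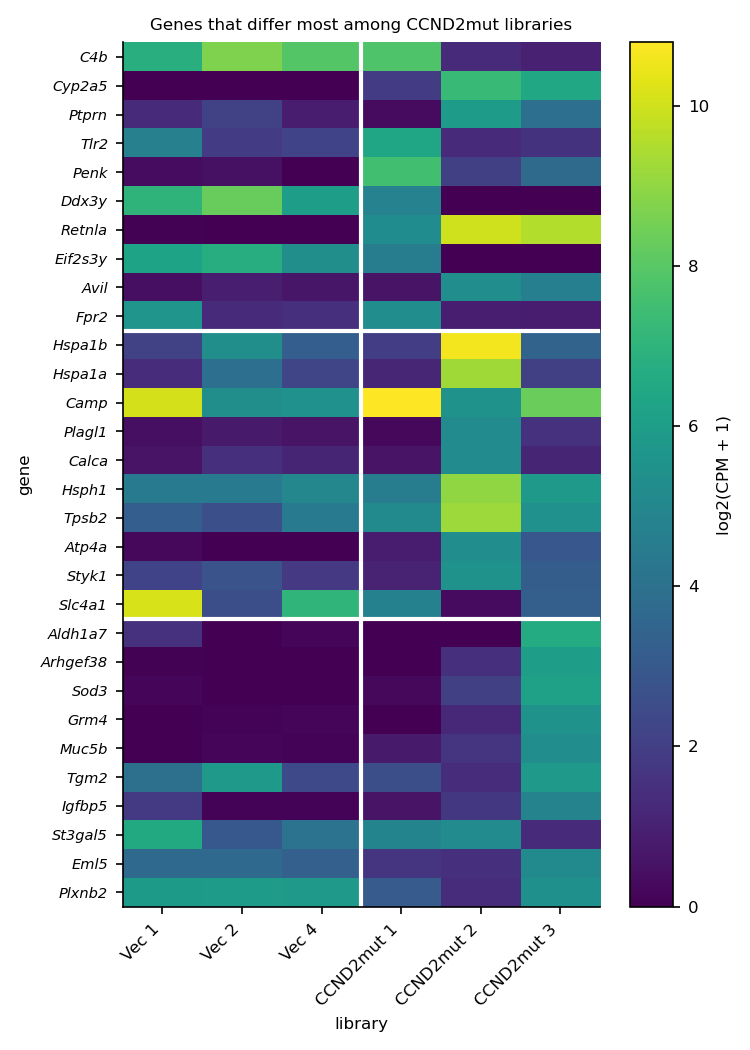
Levels as log2(CPM + 1) in the 6 libraries for the 30 genes that differ most among the CCND2mut libraries, 10 for each library that stands apart (from top: CCND2mut 1, 2 and 3). The top block includes C4b and Ddx3y, which CCND2mut 1 shares with Vec, the middle block heat shock genes high in CCND2mut 2, and the bottom block Aldh1a7 and Sod3, high in CCND2mut 3.

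CCND2mut 1 stood apart in genes that it shared with Vec libraries and in genes that were low in it. C4b, a complement protein, was at 225 CPM in CCND2mut 1 and 1.41 and 0.958 CPM in CCND2mut 2 and 3, against 111, 412 and 241 CPM in Vec. Tlr2 (82.0, 1.41 and 1.98 CPM) and Fpr2 (38.2, 0.898 and 0.766 CPM), receptors of mature myeloid cells, were high in CCND2mut 1 and in Vec 1 (24.9 and 48.5 CPM) and low in the other 4 libraries. Penk, an opioid precursor, was high in CCND2mut 1 alone (180, 3.14 and 12.4 CPM). Retnla, Cyp2a5, Avil (0.468, 38.3 and 23.9 CPM) and Ptprn (0.234, 62.1 and 14.2 CPM) were low in it. A set of 41 genes had a mean of at least 20 CPM in Vec and at most 1 count over CCND2mut 2 and 3, and 40 of them had reads in CCND2mut 1, at a median of 4.20% and up to 30.2% of the Vec mean. The set was chosen after its values were seen, and by its rule only CCND2mut 1 could hold more than 1 count. No such set was drawn for another pair of CCND2mut libraries, so that this count does not compare them. Members included Dntt (1.88%), Myct1 (2.90%), Tek (10.3%), a receptor of stem and endothelial cells, and the Y-linked Ddx3y (15.8%) and Eif2s3y (30.2%). The one gene with 0 counts in all 3 was Pgr.

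CCND2mut 2 stood apart in heat shock and mast cell genes. Hspa1b, an inducible HSP70, was at 2.93, 1543 and 9.90 CPM in CCND2mut 1, 2 and 3 and 3.28, 39.0 and 8.45 CPM in Vec, and Hspa1a and Hsph1 (21.9, 503 and 55.8 CPM) had the same pattern. Of 21 heat shock chaperones 5 rose (23.8%) and 1 fell (4.8%), against 20% and 21.2% over all genes. Their median was 0.65, or 0.15 without CCND2mut 2, and the medians by library were -0.22, 0.84 and 0.31. Tpsb2, a mast cell tryptase, was at 33.7, 595 and 42.6 CPM, and Calca, Plagl1, Atp4a and Styk1 were also highest there. Cpa3, the mast cell carboxypeptidase, stood at 945, 7228 and 1749 CPM, against 7078, 6614 and 8779 CPM in Vec, so that CCND2mut 2 alone was at the level of Vec. Cpa3 was a marker fixed for the tissue check, but was named here after its values were seen. Camp, cathelicidin of secondary granules, was lowest in CCND2mut 2 (1766, 45.5 and 317 CPM), and so was the erythroid anion exchanger Slc4a1 (25.4, 0.257 and 8.69 CPM). The 5 heat shock rises became 8 without CCND2mut 1 and 3 without CCND2mut 3, and the 1 fall was lost without any 1 Vec library and became 2 without CCND2mut 2.

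CCND2mut 3 stood apart in the fewest genes, several of which were nearly absent elsewhere. Aldh1a7, an aldehyde dehydrogenase, was at 97.3 CPM in CCND2mut 3, at 0 in CCND2mut 1 and 2 and at 1.93, 0 and 0.124 CPM in Vec. Arhgef38 (64.4 CPM), Sod3, an extracellular superoxide dismutase (71.3 CPM), Grm4, a glutamate receptor (44.1 CPM), and the mucin Muc5b (38.6 CPM) were at most 3.08 CPM in each of the other 5 libraries. Plxnb2, a plexin, stood at 57.6, 60.4 and 54.2 CPM in Vec and 7.55, 1.60 and 42.2 CPM in CCND2mut, so that only CCND2mut 3 was near the Vec level. St3gal5, a ganglioside synthase, was low in it (27.9, 36.2 and 1.41 CPM). CCND2mut 3 had the deepest fall of stem and progenitor genes (-3.79, against -2.85 and -2.69), CCND2mut 1 had the highest mature neutrophil genes (3.32, against 1.69 and 2.03), and CCND2mut 2 the highest ER folding genes (1.25, against 0.77 and 1.09).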

How the data were processed

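The authors deposited raw counts of reads per gene. Per the submitters' processing notes, which list tools without their roles, CASAVA 1.8, fastp, HISAT2 2.0.5, featureCounts 1.5.0-p3 and DESeq2 1.20.0 were used with the mm10 build. The annotation release and the strand setting are not stated there. RNA was extracted with TRIzol and libraries made with an NEBNext Ultra kit, per the labels' protocols. Libraries were joined to groups by title.

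The 6 libraries were fitted with edgeR 4.0.16 (R 4.3.3, limma 3.58.1) after filterByExpr and TMM scaling, by a robust quasi-likelihood test with 4 residual degrees of freedom and Benjamini-Hochberg adjustment over 14796 genes (threshold 0.05). CCND2wt libraries were left out because they were taken to lie much closer together, a spread not reported here. With all 9 libraries, 8119 of 15660 genes passed in edgeR. The fit was tested on simulated data. Alternatives were other scalings, filters and tools (DESeq2 1.42.0, limma-voom), a 2-fold null, a replicate block and leaving out libraries. Medians and SDs used log2(CPM + 1). Sums of 1 to 3 counts gave ratios with a 95% counting interval, and 0 counts a bound from a floor of 3 counts per group. Both cover counting error only.

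The genes and the 46 lists (1482 of 1501 genes in the file) were chosen with earlier results of these data known. Named genes follow a rule: 8 network genes, the 15 largest rises and falls, the 10 most abundant of each, up to 6 members per list and direction, all sex-linked and oncofetal genes, and 10 genes per library that stands apart. Some genes the rule picks are not reported here.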

Additional observations from a re-analysis of the deposited data

How the results depend on the processing

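Without 1 library at a time, edgeR called 4034 to 5768 genes in all, 1828 to 2889 higher, 2164 to 2954 lower and 525 to 743 memberships in the gene lists, against 6095, 2953, 3142 and 757. With a change of 2-fold as the null, the counts were 2008, 709, 1299 and 246. Vec and CCND2mut share the replicate numbers 1 and 2, but the labels do not say that a number marks a shared animal or batch. Deviations of same-numbered samples correlated at 0.189 and 0.155, above all pairs with unlike numbers (-0.16 to 0.127). With the replicate block 0 genes passed in edgeR, 0 higher, 0 lower and 0 in lists, with 4847 at an unadjusted p under 0.05 and 1 residual degree of freedom. With the block over all 9 libraries, 6751 passed, among them 5759 of the 6095. None of the 6095 calls had the other sign under any alternative run, and the median of all genes moved by more than 0.1 only with no filter (-0.18). Cdk4 turned to -0.017 without Vec 1 and CCND2mut 1 together. Kdm5c turned to 0.047 with no filter, 0.079 without Vec 1 and CCND2mut 1 together and 0.014 without genes of chromosomes 6 and 15, a setting chosen after seeing the data, and lay between -0.090 and 0.107 without 1 library at a time, above 0 without CCND2mut replicate 1 (0.107) or Vec replicate 4 (0.063). Among genes averaging 20 CPM or more, the medians of chromosomes 6 and 15 were 0.60 and 0.71. Without 1 library at a time they were 0.49 to 0.54 and 0.62 to 0.66. The cause was not tested. Promoter motifs were not run, since no promoter sequences were used here.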
